A study of Homo sapiens with 7 samples.

Results

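The polyA transcriptome of HCT116 was measured in 1 RNA-seq library and is described here over all of its 20423 genes, each with 1 value in RPKM (reads scaled to transcript length and to the number of mapped reads). It is 1 of 7 samples of the series; the others map piggyBac transposon insertions and SP1 binding sites in the same cells. HCT116 is an established human colon adenocarcinoma cell line, grown in McCoy medium with fetal bovine serum. The growth protocol, worded alike for every sample, names G418 for the selection of transposed cells; it does not say whether the cells of the RNA library were selected or carried a transposon. There is 1 library and no replicate, and the number of reads is unknown here. Every value below therefore describes this library alone, with no test and no interval. The sources used here also do not give the strand, the library kit or the handling of reads that fit several places.

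A polyA library samples messenger RNA through the adenine tail of mature transcripts. In most dividing cells a small part of the genes supplies a large part of these molecules. The parts of the ribosome, the cytoskeleton and the enzymes of sugar breakdown are usually foremost, because their proteins are needed in large amounts. Many transcripts of the translation machinery begin with a 5′ terminal oligopyrimidine tract, a C at the first base followed by a run of C and T, through which growth signals control their translation.

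The first bases of the highest genes are shown because this start sets apart some of them. RefSeq (GRCh38.p14) gave an entry for 8 of the top 10 genes. Each line holds the 15 bases before and the 15 after the annotated start, 5′ to 3′. Capitals mark the unbroken run of C and T from that start. A gene can have several annotated starts. The first one listed was taken, and whether it is the start used in these cells was not tested.
RPLP1 (chr15:69452803-69452832, plus strand): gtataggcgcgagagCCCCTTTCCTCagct
RPLP2 (chr11:809952-809981, plus strand): ttgcgtcggcgccttCCTTTTCCTCCCTgt
GNB2L1, now named RACK1 (chr5:181243892-181243921, minus strand): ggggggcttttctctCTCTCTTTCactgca
RPS16 (chr19:39435935-39435964, minus strand): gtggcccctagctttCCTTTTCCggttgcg
TMSB10 (chr2:84905641-84905670, plus strand): gggcgccgctcttttgtttcttgctgcagc
ACTG1 (chr17:81512785-81512814, minus strand): gaggccgcggtcggtCTCagtcgccgctgc
MIF (chr22:23894368-23894397, plus strand): aaaaggcgggaccacagtggtgtccgagaa
GAPDH (chr12:6535249-6535278, plus strand): agcgggtgcatccctgtccggatgctgcgc
In 4 of these 8 the first base was C and at least 4 pyrimidines followed, with runs of 11, 13, 9 and 8 bases in RPLP1, RPLP2, GNB2L1 and RPS16. These are 3 genes of ribosomal proteins and the ribosome-bound scaffold RACK1. The cytoskeletal, cytokine and glycolytic genes did not have it at the start taken here. Not every ribosomal protein gene has it at the start taken here, as RPL13, rank 12, shows with a run of 2.
RPL13 (chr16:89560642-89560671, plus strand): ggccctgctatcatcCCagagtgcattgcg
 Of all 27305 genes with a promoter in the table, 1104 (4.04%) began in this way, taking 1 entry for each gene. The same share over the 100 highest genes was void, because only 73 of them had an entry.

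The library's RPKM values ran over many orders of magnitude and were far from symmetric. The median gene stood at 1.91 RPKM and the mean at 16.8, which is 8.79 times the median. The lower quartile was 0.0571 and the upper 9.67. Most genes thus had low values, and the mean was set by a small group at the top: 5% of the genes lay above 55.4 RPKM and 1% above 219.

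Of the 20423 genes, 3398 (16.6%) were listed at exactly 0 and 328 above 0 but under 0.01 RPKM. Between 0.01 and 0.1 lay 2005 genes, and between 0.1 and 1 lay 3054. The largest class, 6664 genes or 32.6%, lay from 1 to 10, and another 4478 from 10 to 100. Above these stood 456 genes from 100 to 1000 and 40 genes at 1000 or more. The distribution of values above 0 had its main peak between 1 and 10, with a shoulder near 0.1.

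**Figure D1:**
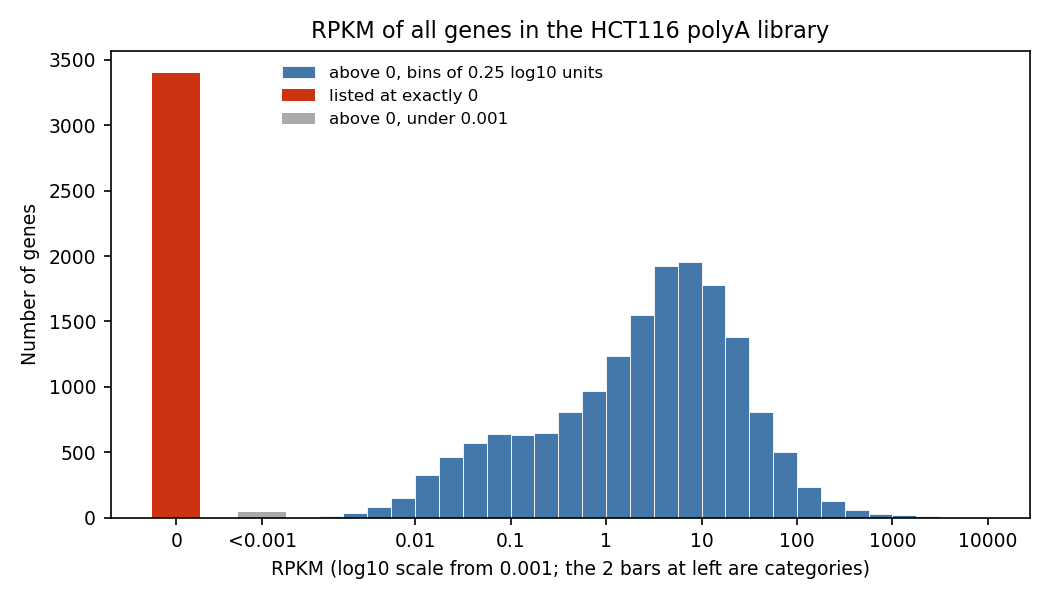
Number of genes (vertical axis) by RPKM (horizontal axis, log10 scale, with separate bars for genes listed at exactly 0 and for genes above 0 but under 0.001). The 3398 genes listed at 0 form the tallest bar, and the values above 0 peak between 1 and 10 RPKM with a shoulder around 0.1.

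The total of all values, 342331 RPKM, was held unevenly. The top 10 genes held 9.55% of it, the top 100 held 32.7% and the top 1000 held 64.7%. A share of summed RPKM is a share of reads per length, the same number as a share of TPM. Read the other way, 52 genes made up 25% of the total, 383 genes made up 50% and 4590 genes made up 90%, and 10236 genes were needed for 99%. The 40 genes at 1000 RPKM or more alone held 22.3%, and the 3054 genes from 0.1 to 1 RPKM together held 0.389%.

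**Figure D2:**
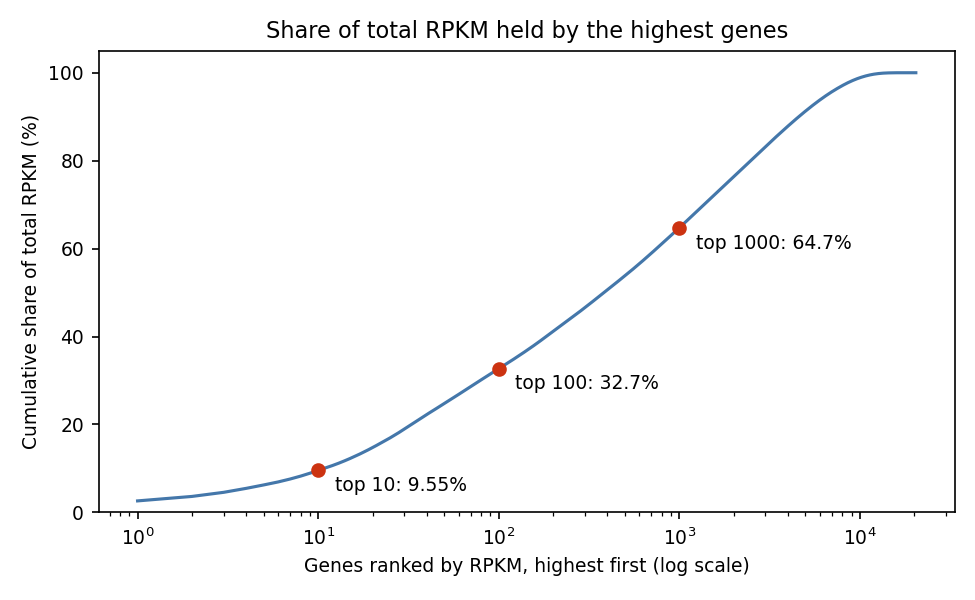
Cumulative share of total RPKM in percent (vertical axis) over genes ranked from the highest RPKM (horizontal axis, log scale). The marked points give the top 10 at 9.55%, the top 100 at 32.7% and the top 1000 at 64.7%.

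The edges of these sets were not gaps in the data. RPS16, the last of the top 10, stood at 2168 RPKM, and RPS3, the next gene, at 1949. The top 100 ended with EZR at 393 RPKM, followed by TUBA1C at 384. At the edge of the top 1000, SNORD25 (56.3) and C7orf40 (56.2) were level.

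One gene stood apart at the very top. RPLP1, an acidic stalk protein of the large ribosomal subunit, had 8979.84 RPKM, 2.58 times the second gene and 2.62% of the total. TMSB10, the actin monomer binding thymosin beta 10, followed at 3477.6. The next were RPL8 at 3203.42, ACTG1 (cytoplasmic gamma actin) at 3099.51 and the cytokine MIF at 2664.92.

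The other genes of the top 10 lay close together. GAPDH, a glycolytic enzyme much used as a reference, stood at 2306.73 RPKM. RPLP2, the partner of RPLP1 in the ribosomal stalk, had 2292.89. GNB2L1, which encodes RACK1, had 2253.11. Ribosomal protein genes were 5 of the 10 and held 57.8% of the RPKM of the set.

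Cytoplasmic ribosomal proteins were the largest listed group of the top 100, by genes and by RPKM. These proteins form the small and large subunits of the ribosome, most of them in single copy, while the stalk proteins RPLP1 and RPLP2 are present in more. The library listed 87 genes of the group, 0.426% of all genes, which held 20.3% of the total RPKM. The group had 49 genes in the top 100, with 58.4% of the RPKM of that set, and 70 in the top 1000, with 31.3%. Its median was 544 RPKM, against 1.91 over all genes.

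Within the group the values were far from equal. Genes such as RPS3 (1949 RPKM), RPL13 (1862), RPL36 (1827) and RPLP0 (1824) lay close together below the top 10. At the other end, 6 of the 87 were under 1 RPKM, of which 5 are described here. RPL3L and RPL39L, tissue-restricted relatives of RPL3 and RPL39, stood at 0.143 and 0.776. RPL21 (0.0800), RPL10 (0) and RPS14 (0) encode regular parts of the ribosome.

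Copies of 1 gene show why single values in this group are uncertain. RPL13A had 286 RPKM, its copies RPL13AP5, RPL13AP6 and RPL13AP20 had 466, 59.7 and 57.1, and RPL13AP17 was listed at 0. Processed pseudogenes can be nearly identical to their parents, and how the reads of such copies were shared out was not tested. Outside the ribosome, H3F3A stood at 0.000133 RPKM and H3F3B at 176. These are separate genes for the same replacement histone H3.3 and not a parent with its processed copy. H3F3C, related by name, had 154. The read-through gene NME1-NME2 stood at 523 RPKM, above both NME1 (264) and NME2 (195), whose exons it contains.

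The rest of the top 100 was spread over translation, energy supply, cytoskeleton and protection from oxidation. Of the 100 genes 89 belonged to at least 1 of the gene lists used, and these held 92.3% of the RPKM of the set. A gene in several lists was counted in each. The lists were chosen with earlier results of these data known, so this coverage is not a finding about the genes.

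Translation factors had 4 genes in the top 100. EEF2, the factor that moves the ribosome along the message, stood at 1777 RPKM. The poly(A)-binding protein gene PABPC1 had 792, the elongation subunit gene EEF1G 728 and the start-codon factor gene EIF1 421. The whole list of 74 genes had a median of 24.2 RPKM and held 2.62% of the total, so its highest members were far above the rest.

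The actin and tubulin list had 7 genes in the top 100 and held 4.19% of the total with 45 genes. Beside TMSB10 and ACTG1 these were the actin binding proteins PFN1 (1712 RPKM), CFL1 (660) and EZR (393), ACTB (756) and the tubulin gene TUBA1B (439). Gamma actin was thus listed at several times the level of beta actin, 3099.51 against 756 RPKM. VIM, which encodes vimentin, the intermediate filament of mesenchymal cells, was the lowest of the list above 0 with 0.984 RPKM, and TPM3 was the member listed at 0, picked out here after its value was seen.

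Energy metabolism appeared with 5 glycolytic and 4 mitochondrial genes in the top 100. After GAPDH came ALDOA at 895 RPKM, ENO1 at 790, PKM2 at 637 and TPI1 at 429, each an enzyme of the lower or middle part of glycolysis. The 16 glycolytic genes had a median of 124 RPKM and held 1.77% of the total. The hexokinase gene HK2 had the lowest value above 0 in this list, 5.78 RPKM, and HK1 was listed at 0. The 82 respiratory chain and ATP synthase genes had a median of 87.1 RPKM and held 3.18%, led by COX8A (602), NDUFB9 (533), COX4I1 (461) and ATP5B (408). Of these 82 genes 52 were in the top 1000.

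Metal and redox proteins were the other group with several of the highest genes. The metallothionein genes MT2A and MT1E, whose proteins bind zinc and copper, stood at 1614 and 905 RPKM. GPX4, which reduces lipid peroxides, had 715, the glutathione transferase gene GSTP1 had 509 and SOD1, which removes superoxide, 406. The iron storage genes FTL and FTH1 had 1387 and 440 RPKM, while TFRC, the receptor for iron uptake, had 14.1.

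Other listed genes of the top 100 included S100A6 (1439 RPKM), the galectin gene LGALS1 (1211), the ubiquitin gene UBB (1025), the simple epithelial keratin gene KRT19 (543), the spliceosomal gene SNRPD2 (509), the chromatin-associated gene PTMA (455) and the protein disulfide isomerase gene P4HB (405). No proteasome, vacuolar ATPase or mitochondrial ribosomal protein gene reached the top 100; their highest members were PSMB3 at 282, ATP6V0C at 208 and MRPL12 at 139 RPKM.

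The 11 genes of the top 100 outside all lists were MIF, the copy RPL13AP5, NME1-NME2 and others. Among these others, IER3, an immediate early gene, had 844 RPKM. GDF15, a secreted factor raised in stressed cells, had 519. ID1, an inhibitor of helix-loop-helix factors, had 507, and ATF4, the transcription factor of the amino acid and stress response, had 476. Further ones were the interferon-induced membrane protein gene IFITM3 (488), GNAS, for a G protein subunit (435), and SAT1, for an enzyme of polyamine breakdown (421).

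The make-up of the top 1000 was broader. Only 449 of its genes were in a list, with 70.2% of the RPKM of the set. Beside the 70 ribosomal and 52 respiratory genes it held 34 of 94 splicing and mRNA binding genes, 30 of 45 cytoskeletal genes, 25 of 38 chaperones, 21 of 76 mitochondrial ribosomal proteins, 18 of 44 proteasome genes and 12 of 36 genes of DNA replication and mitosis. Chaperones were led by P4HB, PPIB (375 RPKM), HSP90AB1 (351) and HSPB1 (343), and all 38 were at 6.12 RPKM or more. DNA replication and mitosis genes were led, after TUBA1B, by CKS2 (215 RPKM), TK1 (177) and MCM7 (119).

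MicroRNA and other small RNA genes did not follow the rest of the library. Of 832 such genes 525 (63.1%) were listed at 0, but 2 were in the top 100: MIR663 at 707 RPKM and MIR1977 at 704. MIR663B had 268 and MIR1282 had 194. These are values of genes and not of mature microRNAs, which carry no polyA tail, and a value per length rests on few reads where a gene is short. The mature sequence of the highest one that RefSeq (GRCh38.p14) holds is shown, with its seed (bases 2 to 8) in capitals. It is the mature product only and does not give the length of the gene, to which RPKM is scaled.
hsa-miR-663a (chr20:26208243-26208264, minus strand): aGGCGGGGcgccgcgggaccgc

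The labelled cell type was checked against 13 markers of colon epithelium, and 6 of them were at 1 RPKM or more, against 56.98% of all genes. The keratin genes KRT19, KRT8 and KRT18 of simple epithelia stood at 543, 378 and 268 RPKM, the surface protein gene EPCAM at 79.5 and the E-cadherin gene CDH1 at 17.01. CDX2, an intestinal transcription factor, had 9.19. Genes of the differentiated colon were low: VIL1 stood at 0.0313 RPKM, CDX1 at 0.0242, KRT20 at 0.238, CEACAM5 at 0.0266, GPA33 at 0.123, and CDH17 at 0.0464. LGALS4 was listed at 0. The high markers were thus those of epithelia in general, and of the markers more particular to the intestine CDX2 alone exceeded 1 RPKM, so the list does not by itself bear out the colon label.

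Markers of other cell types had lower summed RPKM than the colon epithelial list. The sum was 0.356 over 4 endothelial, 0.365 over 4 hepatocyte, 7.47 over 3 erythroid and 8.91 over 6 leukocyte genes. It was 14.6 over 5 fibroblast, 17.9 over 3 neuronal and 25.4 over 4 muscle genes, against 1295 over the 13 of colon epithelium. Most of the latter sum came from KRT19, KRT8 and KRT18, which are not particular to the colon. By count the lists differed less. At 1 RPKM or more were 2 of 3 erythroid, 2 of 3 neuronal and 2 of 4 muscle genes, against 6 of 13 colon epithelial genes. The endothelial and hepatocyte lists had no gene at 1 RPKM or more, with highest values of 0.163 (KDR) and 0.191 (ALB). The leukocyte genes PTPRC and CD3E were listed at 0, and of that list only CD68, a lysosomal protein gene, exceeded 1 with 8.65 RPKM. Among fibroblast genes COL1A1 had 14.5 RPKM, while COL1A2, whose chain joins it in type I collagen, had 0.0277 and DCN was listed at 0. SYT1 and GAD1 of the neuronal list had 13.6 and 4.26 RPKM, and ACTA1, skeletal muscle actin, 22.8. DES of the muscle list had 2.35, and HBA1 and HBA2 of the erythroid list had 3.72 and 3.75. HBE1, a globin gene outside the list and picked out after its value was seen, had 164.7 RPKM. The hepatocyte gene TTR was listed at 0.

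Most of the families restricted to single tissues that were examined had a larger share at 0 than the 16.6% over all genes. All 6 late cornified envelope genes of the skin were listed at 0, as were 14 of 17 beta-defensin genes, 29 of 44 keratin-associated protein genes of hair, 47 of 106 olfactory receptor genes and 59 of 85 cancer-testis antigen genes. The taste and vomeronasal receptor genes differed, with 3 of 24 (12.5%) at 0. A few members of these families were not low. The olfactory receptor gene OR51B4 stood at 19.4 RPKM, and the cancer-testis genes MAGEB2 and MAGEA3 at 44.0 and 26.5.

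Some genes that nearly every cell uses were also listed at exactly 0. Over 18 lists of common cell machinery and reference genes, 753 genes in all with a median of 50.9 RPKM, 713 were at 1 RPKM or more and 23 (3.05%) were listed at 0. The lists were drawn up partly by name pattern, so that the 23 also hold tissue forms and pseudogenes. Only some of these are named as such below, so an unlabelled gene is not thereby a widely used one. Of all other genes 17.2% were at 0. Because working cells cannot do without several of the 23, a 0 in this table is given only as listed at 0, and not as a lack of transcripts.

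**Figure D3:**
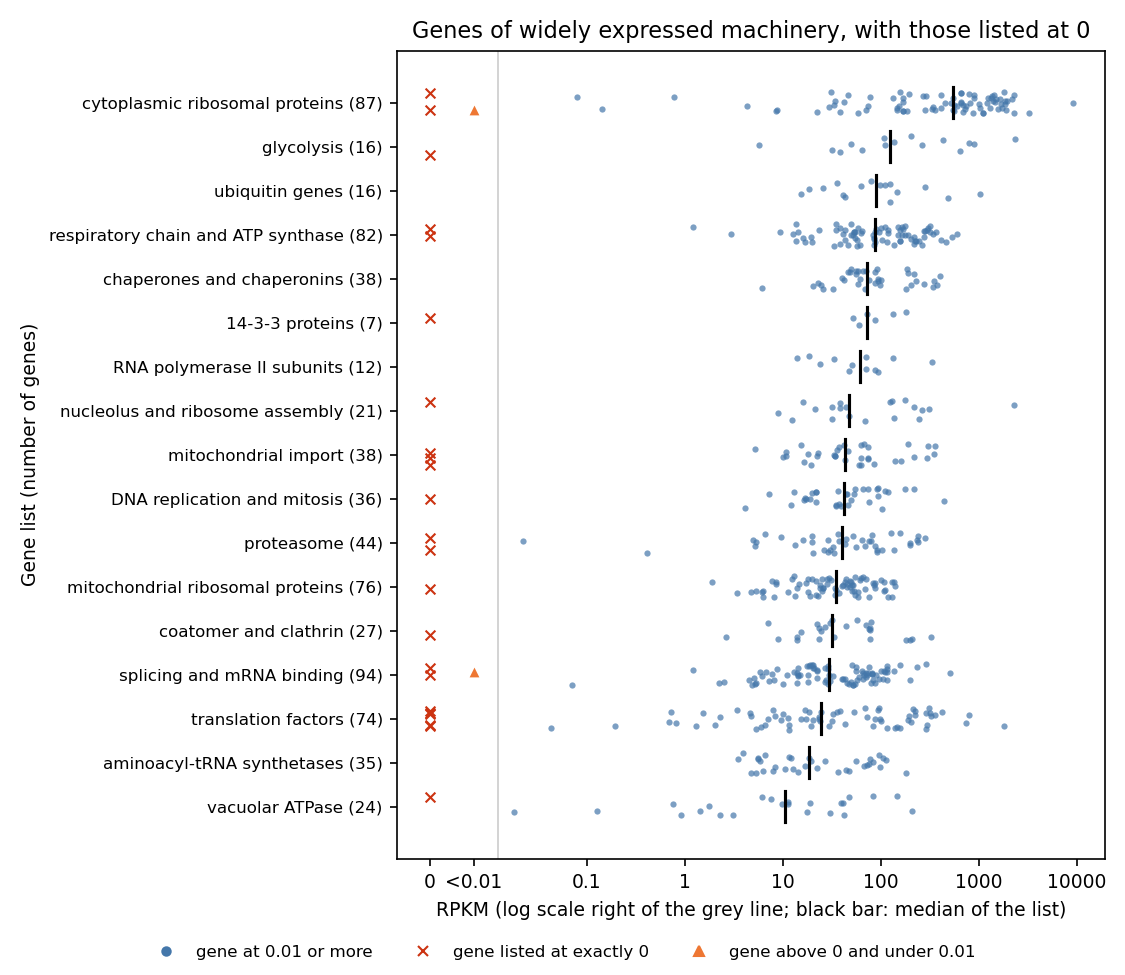
RPKM of each gene (horizontal axis, log scale right of the grey line) in 17 lists of common cell machinery (vertical axis, with the number of genes), where blue points are genes, black bars list medians, red crosses genes listed at exactly 0 and orange triangles genes above 0 but under 0.01. The crosses are drawn at a fixed place left of the grey line, so their distance from the points has no meaning. The ribosomal list has the highest median at 544 RPKM.

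In translation, RPL10 and RPS14 of the ribosome and MRPL49 of the mitochondrial ribosome were listed at 0. So were EIF4E, the cap-binding protein, EIF4A2, an RNA helicase of the same complex, EEF1D, an exchange factor of elongation, and EIF2AK1, the heme-regulated kinase. EEF1DP3, by its name a pseudogene, was the other factor gene at 0. Their partners were not low: EIF4G1 had 71.8 RPKM and EIF4A1 287, and EEF1B2 and EEF1G, which act with EEF1D, had 322 and 728. The small subunit ribosomal genes next to RPS14 in name, RPS13 and RPS15, had 544 and 866.

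In energy supply and protein turnover the genes at 0 were HK1 of glycolysis, ATP5J2 and NDUFB11 of the respiratory list, and PSMC2 and PSMA8 of the proteasome. PSMA8 is a testis form. PSMC2 is 1 of 6 ATPases that form a ring in which each is present once, and the other 5 ranged from 6.64 RPKM for PSMC6 to 103 for PSMC5. Mitochondrial import had TIMM8B, TOMM20L and TOMM40L at 0. ATP6V1G3, a kidney form, was the vacuolar ATPase gene at 0.

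The rest of the 23 were YWHAZ of the 14-3-3 proteins, TYMS, the thymidylate synthase of DNA precursor supply, AP2A1 of the clathrin adaptor, EBNA1BP2 of ribosome assembly, SRSF12 and the pseudogene SNRPD2P2. The other 6 genes for 14-3-3 proteins ranged from 52.1 RPKM for YWHAB to 181 for YWHAE. RRM1, RRM2 and TK1, which like TYMS supply DNA precursors, had 17.3, 46.1 and 177 RPKM. In both families the gene at 0 lay apart from all its relatives.

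Further widely used genes at 0 lay outside the lists and were picked out after their values were seen. SLC3A2, the heavy chain of the amino acid transporter LAT1, was listed at 0, and its light chain SLC7A5 stood at 346 RPKM and rank 111. RPN2 of the oligosaccharyltransferase was at 0 beside RPN1 at 126 and DDOST at 223. RFC4 of the clamp loader was at 0, and the other 4 subunits ranged from 7.96 to 31.2 RPKM. PFDN2 of prefoldin, SMARCB1 of the chromatin remodeller SWI/SNF and IKBKG of the IKK complex were also at 0, each beside partners at 2.09 RPKM or more.

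Pairs in which both genes were at 0 made up a larger share among overlapping genes than among genes that lie side by side. RefSeq (GRCh38.p14) was used to find which genes of the library overlap. Small RNA genes and genes with a hyphen in the name, such as read-through genes, were left out. Gene bounds in hg18 may differ. Of 2657 overlapping pairs 447 had a gene at 0, and in 258 of these (57.7%) both were at 0. For neighbours that do not overlap, both were at 0 in 24.4% of such pairs with a gap of up to 1 kb, 23.01% with a gap over 1 to 10 kb and 20.5% with a wider gap. With small RNA and read-through genes kept the share for overlapping pairs was 38.3%, and with each gene in 1 pair at most it was 51.5%. Pairs that share a gene are not independent, and overlapping genes can share exons.

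**Figure D4:**
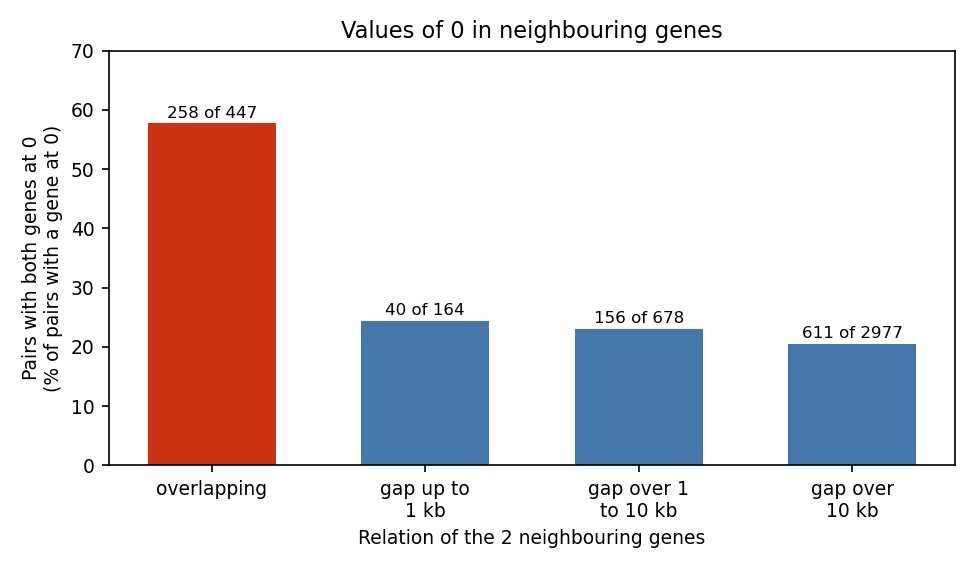
Share of neighbouring gene pairs in which both genes were at 0, in percent of the pairs with at least 1 gene at 0 (vertical axis from 0), by the relation of the 2 genes (horizontal axis). The number over each bar gives pairs with both at 0 of pairs with a gene at 0, and the bar of overlapping pairs stands at 57.7% against 20.5% to 24.4%.

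The genes of the 18 lists of common machinery showed the same arrangement, again with small RNA genes and genes with a hyphen in the name left out. Of their 23 at 0, tissue forms and pseudogenes included, 12 overlapped another gene of the library, and for 9 of these (75%) an overlapping gene was also at 0. Of the 730 above 0, 131 overlapped another gene, and 6 (4.58%) had one at 0. The 9 were AP2A1 with FUZ, EBNA1BP2 with WDR65, EIF2AK1 with AIMP2, MRPL49 with SYVN1, PSMC2 with SLC26A5, RPL10 with DNASE1L1, TIMM8B with C11orf57, TOMM40L with NR1I3, and TYMS with ENOSF1 and C18orf56. PSMC2 also overlaps PMPCB, which had 9.99 RPKM. EIF4A2 overlaps none of the genes kept for this search but lies within 1 kb of RFC4, also at 0. The other neighbours within 1 kb of a gene of the 23 were above 0. They were CPSF4 beside ATP5J2 (28.9 RPKM), TIGD5 beside EEF1D (6.65), FAU beside MRPL49 (657) and SDHD beside TIMM8B (13.5).

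Overlap did not go with every 0. NDUFB11 was at 0 and overlaps RBM10 at 28.3 RPKM, SRSF12 overlaps PM20D2 at 3.94, and TOMM20L overlaps TIMM9 at 10.8. Among the genes kept for this search, EIF4E, HK1, RPS14 and YWHAZ had no neighbour that overlapped them or lay within 1 kb. Whether overlap had a part in these values was not tested.

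Across all genes, 395 of the 3398 at 0 (11.6%) fell into 175 groups of genes at 0 joined by overlap. The largest, with 10 genes, held DNAJB3 and the genes of the UGT1A locus, which share exons with each other. A group of 4 held NF1, a RAS regulator, with EVI2A, EVI2B and OMG, which lie within it. Groups of 3 held WDR6 with DALRD3 and NDUFAF3, and ARAF with SYN1 and TIMP1, and pairs held RPN2 with C20orf132, SMARCB1 with DERL3, IRF3 with BCL2L12 and STAT6 with NAB2. Several of these widely used genes thus shared their 0 with a gene that overlaps them.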

How the data were processed

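The values analysed are 1 column of RPKM in 1 polyA RNA-seq library of HCT116, with 1 line for each of 20423 symbols and 0 repeated symbols. Per the deposited readme, the authors aligned reads to hg18 with TopHat and computed RPKM for RefSeq genes with Cufflinks; the submitters' processing notes name Cufflinks 1.1.0. No source used here gives depth, annotation release, filters or strand, and no interval or floor could be computed. Files of the other samples were not used here.

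Genes were ranked by RPKM, and shares of the sum, quantiles and counts were computed with Python 3.11.15 and pandas 2.3.3, tested on made-up values with known answers. Genes were grouped by 34 lists written by symbol or name pattern from general knowledge; the members and lists were chosen with earlier results of these data known. The rule for named genes took all of the top 10, the highest genes and the lowest of each list, every machinery or reference gene at exactly 0, and the cell type markers. Partners, copies and neighbours of genes at 0, and members of the top 100 beyond this rule, were chosen after their values were seen. Symbols were matched to RefSeq (GRCh38.p14) for names, neighbours and sequences: 16989 by symbol and 2448 by a synonym held by 1 gene, 19437 in all, and 14415 had a promoter entry. Protein lengths were planned but not analysed here, and some genes that the rule names are not reported here.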

Additional observations from a re-analysis of the deposited data

How the results depend on the processing

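The values are those of 1 library without replicate, and the depth that would limit low values is not known. No symbol was repeated, so keeping the highest line of a gene, or counting every line, gave the main values. The share of the top 10, 100 and 1000 genes was 9.59%, 32.8% and 65.0% without genes under 1 RPKM, 7.70%, 31.0% and 63.8% without RPLP1, 9.64%, 32.8% and 64.8% without small RNA genes, and 7.97%, 22.8% and 57.2% without cytoplasmic ribosomal protein genes. Counts of genes at 1 RPKM or more (11638) moved to 12763 at 0.5 RPKM and to 10090 at 2 RPKM, and genes at 0 (3398) to 3726 under 0.01 RPKM and to 2873 without small RNA genes. Of the genes in the 18 lists of common machinery 23 were at 0, and 25 were under 0.01 RPKM. The median of log2(RPKM + 1) was 1.54, with a pseudocount of 0.1 it was 1.01, and without genes listed at 0 it was 2.19. For overlapping pairs, 4 alternatives were added after the data had been seen: both genes were at 0 in 38.3% with small RNA and read-through genes kept, in 48.1% counting values under 0.01 RPKM as 0, in 62.5% with genes matched by symbol only, and in 51.5% with each gene in 1 pair at most, against 57.7%. The median protein length of the top 100 was not run. No paired analysis was possible because the values come from no test and the RNA library has no second sample.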

Other observations

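In several lists every gene was at 1 RPKM or more. All 35 aminoacyl-tRNA synthetase genes, which charge tRNAs with amino acids, were at 1 RPKM or more, with SARS highest at 179.7 RPKM and WARS2, a mitochondrial form, lowest at 3.50. All 12 RNA polymerase II subunit genes were at 1 RPKM or more, from POLR2B at 13.9, for a catalytic subunit, to POLR2L at 335, for a small subunit shared by the polymerases. All 7 genes of the MHC class I list were at 1 RPKM or more as well. They were led by HLA-C at 189.6 and B2M, the common light chain, at 159.0 RPKM, and HLA-G was lowest at 10.1. Of all 20423 genes 56.98% were at 1 RPKM or more.

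Keratins and S100 genes were uneven. Of 53 keratin genes 12 were at 1 RPKM or more and the median was 0.0578 RPKM, so the values of KRT19, KRT8, KRT18 and KRT7 (62.6) stood far above the family. Among 27 S100 and annexin genes, for calcium-binding proteins, S100A6 and ANXA2 were followed by S100A11 at 335 and S100A16 at 176 RPKM, and ANXA8 had 0.0142. Of 2011 genes with provisional names 430 (21.4%) were at 0, against 16.6% of all genes, and the highest, C12orf57, had 278 RPKM.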
